A study of Mus musculus with 9 samples.

Results

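Kinesins are motor proteins that walk along microtubules or shorten them. The measured family comprised 40 genes of the 18193 compared, taken as every gene whose platform symbol is Kif with a number or Kifc with a number, each represented by its brightest probe set on average over the 9 arrays. By function they were divided into 13 mitotic kinesins, 17 transport kinesins and 10 others, which serve cilia, centrioles or roles outside these groups. The tumours were 5 hepatocellular carcinomas (TKO HCC) of genotype RbΔ/Δ; p130Δ/Δ; p107+/-, taken from livers of mice that had received Ad-Cre, an adenovirus carrying Cre recombinase, into the spleen 4 months earlier. The titles say triple knockout, whereas the listed genotype keeps a copy of p107. The controls were 4 normal livers of wild-type adult mice without tumours, and no virus is listed for them. Genotype, virus and tumour state therefore differed together and cannot be told apart. The sources used here state neither age in weeks nor sex nor which exons were deleted. Separate animals are not named for the samples of either group, and p-values therefore measure only the spread between these samples, which may be technical.

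Mitotic kinesins build the spindle, move chromosomes and help to divide the cell. Their genes are switched on mainly in cells that approach division, and few hepatocytes of an adult liver do. Transport kinesins carry organelles, vesicles and messenger RNAs through the cell at all times, and several are best known from neurons. In quiescent cells the RB family proteins p130 and p107 join E2F and MuvB proteins in the DREAM complex, which holds back cell-cycle genes. The question was how the levels of these motors in the tumours compared with those of normal liver, and whether mitotic and transport members did the same.

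Each sample was hybridised to 1 Affymetrix Mouse Genome 430 2.0 array, and levels below are deposited log2 RMA values per probe set. Array medians lay between 6.22 and 6.27. Precision is limited by how few arrays there are. Background was gauged with TrpnX, a control probed for a bacterial gene, which read 3.69 to 4.36. The targeted gene Rbl2 (p130) read 6.77 to 8.43 in tumours and 9.44 to 10.02 in livers, Rb1 read 8.76 to 9.38 in tumours and 7.69 to 8.33 in livers, and Rbl1 (p107) read 4.63 to 4.82 in tumours and 4.23 to 5.83 in livers; a probe set outside a deleted part checks nothing about the genotype. Liver identity was present in both groups, with a summed level of 4 hepatocyte markers of 16.96 to 17.01 in tumours and 16.83 to 17.02 in livers. RNA length was read from Actb, whose 3' probe set exceeded its 5' probe set by 0.61 ± 0.08 log2 units in the tumours (SD, n = 5) and by 0.96 ± 0.04 in the livers (SD, n = 4) (exact permutation test, two-sided p = 0.00794, adjusted p = 0.0159 over 2 controls, the raw value being the smallest this design allows). The same measure for Gapdh was -0.21 ± 0.03 in the tumours (SD, n = 5) and -0.28 ± 0.05 in the livers (SD, n = 4), a difference of opposite sign that did not pass (exact permutation test, two-sided p = 0.0635). The part of RNA length in the results below was not tested.

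The kinesins split by function. Of 13 mitotic kinesins, 10 were higher in the tumours, 0 were lower and 3 did not pass an adjusted p of 0.05 (limma, two-sided, Benjamini-Hochberg over all 18193 genes), and 33.5% of all genes passed, 16.1% as higher and 17.4% as lower. All 10 were at least doubled (6.52% of all genes were called higher by 2-fold or more) and 5 were higher by 8-fold or more (1.0% of all genes). Of 17 transport kinesins, 2 were higher and 5 lower, and of the 10 others 1 was higher and 1 lower. The median log2 difference was 2.32 for mitotic, -0.18 for transport and -0.08 for the other kinesins, against -0.08 over all genes. The calls of the transport kinesins, at 7 of 17, stood near the share of all genes. Groups did not overlap for 20 of the 40 kinesins, 12 with tumours above and 8 with tumours below, against 29.8% of all genes, 14.0% above and 15.9% below. With arrays centred on 12 housekeeping genes the median of all genes became -0.34 and the family had 11 higher and 6 lower. Of those 12 genes, 7 were themselves called higher and 1 lower, with a median difference of 0.51, so they are not a stable reference. With arrays centred on the 75th percentile the median of all genes became -0.23. There the family had 13 higher and 12 lower, and the mitotic kinesins 10 and 2. RNA from whole tissue cannot tell more dividing cells from more RNA per cell.

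**Figure D1:**
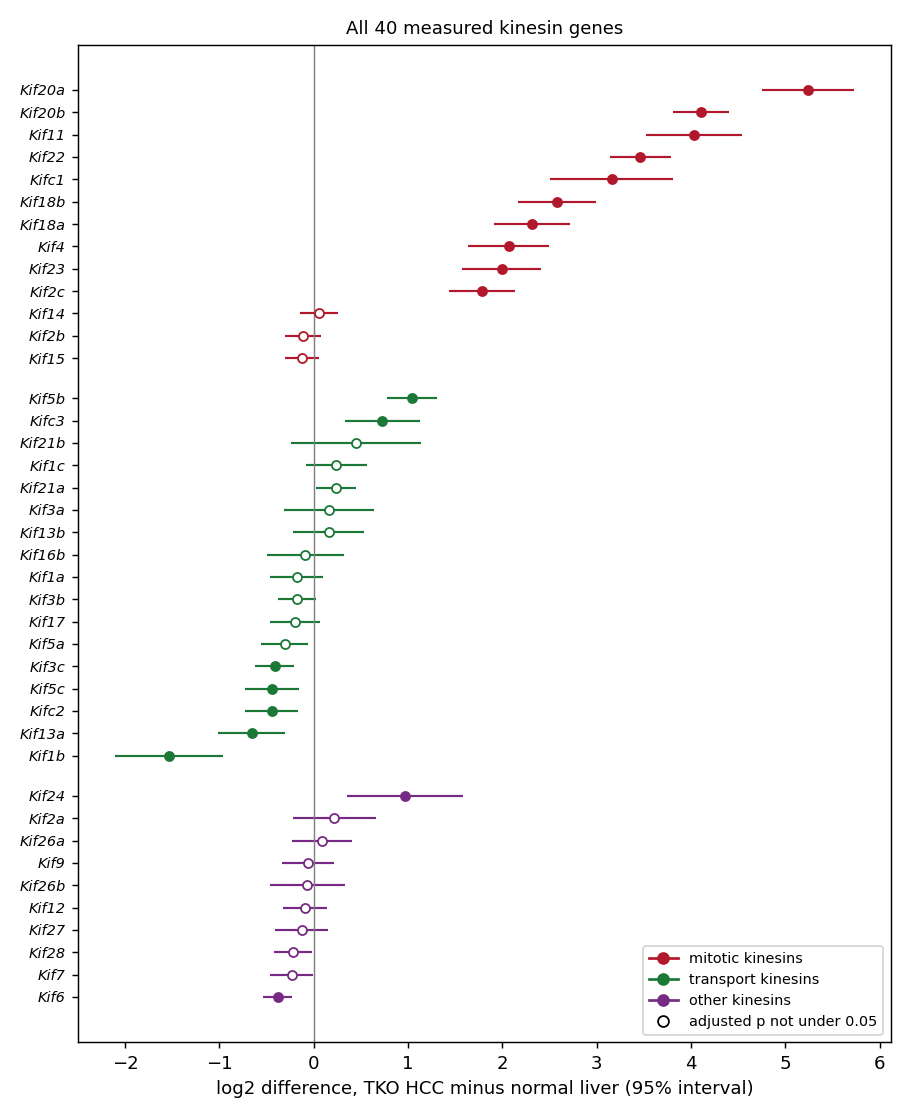
Log2 difference (TKO HCC minus normal liver, horizontal axis) of each of the 40 kinesin genes with its 95% interval, grouped by function; filled points passed an adjusted p of 0.05. The 13 mitotic members lie between -0.12 and 5.24, with 3 of them near 0, and the 17 transport members lie between -1.53 and 1.04.

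Among the motors of the central spindle, which forms between the separating chromosomes and positions the cleavage furrow, Kif20a had the largest difference of the family. Kif20a, which brings Aurora B to the central spindle, read 10.33, 10.56, 10.35, 10.44 and 10.44 in tumours 1 to 5, against 5.61, 5.49, 5.22 and 4.42 in livers 1 to 4. The tumours lay within 0.24 log2 units of each other and the lowest stood 4.72 above the highest liver. The log2 difference was 5.24 (SE 0.22, limma adjusted p = 3.46e-07), or 37.8-fold. Kif20b, a relative that also acts in cytokinesis, read 9.09, 8.61, 8.89, 8.80 and 8.86 in tumours, against 4.96, 4.41, 4.85 and 4.75 in livers. Its groups did not overlap either, and the difference was 4.11 (SE 0.13, limma adjusted p = 7.52e-08), or 17.2-fold. In both genes the lowest liver read just above the TrpnX range, where RMA compresses differences. Kif23, the motor subunit of centralspindlin, read 9.03, 8.34, 9.13, 8.58 and 9.09 in tumours, against 7.11, 6.79, 6.87 and 6.59 in livers, a difference of 2.00 (SE 0.19) that amounted to 3.99-fold. Kif4, a chromosome-bound motor that also sets the length of the central spindle, read 9.31, 9.56, 9.45, 8.90 and 9.05 in tumours, against 7.14, 6.77, 7.62 and 7.20 in livers. Every tumour again exceeded every liver, and the difference for Kif4 was 2.07 (SE 0.19), or 4.20-fold.

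The motors that shape the spindle and move chromosomes were higher as well. Kif11 (Eg5), which slides the spindle poles apart, read 9.69, 9.16, 9.51, 9.11 and 9.57 in tumours, against 5.95, 5.59, 5.10 and 4.85 in livers, a difference of 4.03 (SE 0.23, limma adjusted p = 2.55e-06), or 16.4-fold. Kifc1, a motor that walks toward the minus end and gathers the poles, read 8.88, 8.54, 8.95, 8.13 and 9.12 in tumours, against 5.24, 5.05, 5.60 and 6.36 in livers. The groups lay 1.77 apart at their nearest values although liver 4 stood above the other livers, and the difference was 3.16 (SE 0.29), or 8.95-fold. Its probe set can cross-hybridise, and the close relative Kifc5b, which has a probe set of its own, differed by 0.91 (SE 0.12). Kif22, which pushes chromosome arms away from the poles, read 11.42, 11.30, 11.35, 10.76 and 11.35 in tumours, against 7.57, 7.89, 7.79 and 7.84 in livers. Tumour 4 was the lowest of the tumours and still 2.87 above the highest liver, and the difference was 3.46 (SE 0.14), or 11-fold. This probe set is also open to cross-hybridisation, but the other 2 of Kif22 gave 4.26 and 3.44.

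Members of the families that shorten or dampen microtubule ends were also higher. Kif18a, which limits the swinging of chromosomes at the spindle equator, read 7.90, 7.76, 8.04, 7.30 and 8.01 in tumours, against 5.52, 5.71, 5.61 and 5.10 in livers, a difference of 2.32 (SE 0.18), or 4.98-fold. Kif18b, which shortens astral microtubules, read 9.13, 8.59, 9.16, 8.75 and 8.87 in tumours, against 6.55, 6.40, 6.55 and 5.79 in livers. Its difference was 2.58 (SE 0.18), or 5.97-fold, and for both genes no tumour reached down to a liver. Kif2c (MCAK), which takes microtubules apart at kinetochores, read 8.85, 8.52, 8.86, 8.28 and 8.75 in tumours, against 6.67, 6.82, 6.77 and 7.21 in livers. The difference of 1.79 (SE 0.15), or 3.45-fold, was the smallest of the 10 by the brightest probe set of each gene, but 2 other probe sets of Kif2c gave 3.45 and 2.94. Averaging all probe sets of a gene, dim ones included, lowered the differences to 1.17 for Kif18a, 1.46 for Kif20b and 1.28 for Kif23, which still passed.

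The other 3 members of the mitotic list showed no such difference, each read by 1 probe set. Kif14, a partner of citron kinase in cytokinesis, read 4.08 to 4.27 in tumours and 3.85 to 4.22 in livers, inside the TrpnX range (log2 difference 0.06, 95% interval -0.15 to 0.26), and the sign turned to -0.20 and -0.09 with arrays centred on housekeeping genes and on the 75th percentile and to -0.025 without liver 4. Kif2b, another spindle motor, read 3.94 to 3.99 in tumours and 3.87 to 4.25 in livers, likewise at background. Kif15, which works beside Kif11, read 6.27 to 6.30 in tumours and 6.30 to 6.62 in livers (difference -0.12, 95% interval -0.31 to 0.06). These values bound what the single probe sets saw; for Kif14 and Kif2b no signal above the TrpnX control was measured in either group.

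**Figure D2:**
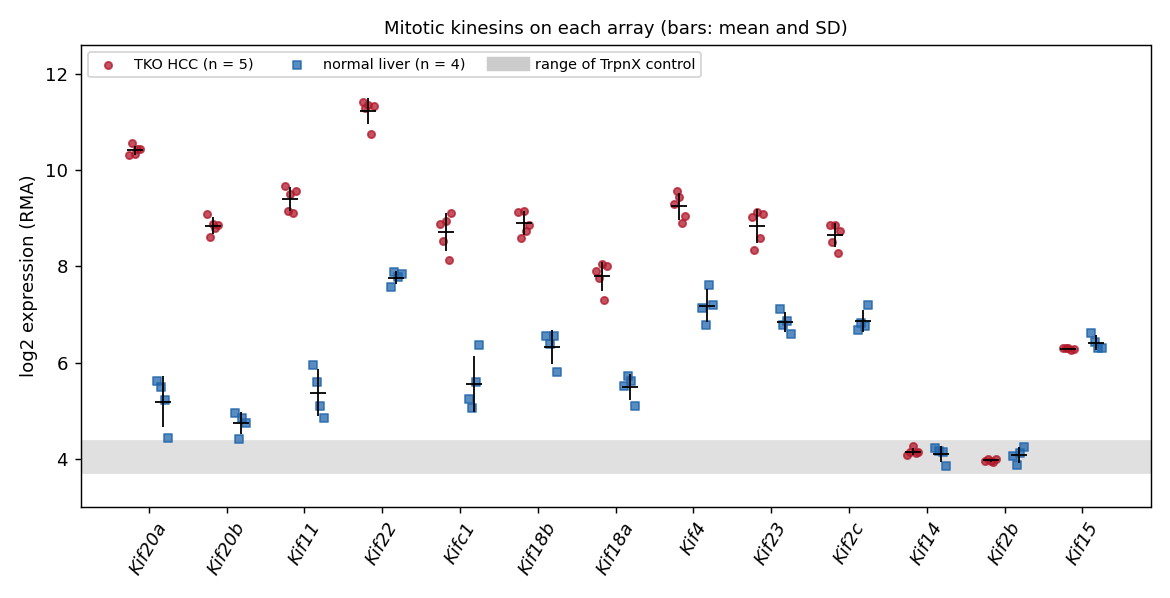
Log2 expression of the 13 mitotic kinesins (vertical axis) on each array, TKO HCC as circles left of normal liver as squares, with mean and SD; the grey band is the TrpnX range, 3.69 to 4.36. In 10 genes every tumour lies above every liver, while Kif14 and Kif2b lie within or at the band and the groups of Kif15 nearly coincide.

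In these 10 genes the highest and lowest tumour lay a median of 0.62 log2 units apart, against 0.47 over all genes. Tumour 4 was the lowest tumour for 6 of the 10 genes and tumour 2 for 3, and tumour 3 was the highest for 4. Against the liver mean, the median difference over the 10 genes was 3.06, 2.68, 3.11, 2.50 and 3.05 in tumours 1 to 5. The spread between the highest and lowest tumour ranged from 0.24 for Kif20a to 0.99 for Kifc1, and that between livers from 0.32 for Kif22 to 1.31 for Kifc1. Every tumour lay above every liver in each of the 10. No mitotic kinesin lost its call when any single array was left out, and the median difference of the 13 stayed between 2.19 and 2.44.

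Because 10 of the 13 mitotic members were higher and the DREAM complex contacts DNA at known short motifs, RefSeq promoter windows were searched on both strands. The windows (GRCm38.p6) ran from 250 bases before to 50 after the annotated start. Sought were the CHR motif, which MuvB binds, as TTTGAA or TTTAAA, and CCAAT, bound by NF-Y. The E2F form TTCCCGC was sought with its variants, spelled TTGGCGC in the first, TTCGCGC in the next and TTGCCGC in the last. A CCAAT can share letters with a reversed TTGGCGC. Windows were found for 32 kinesins, 36 windows in all, with none for Kif13b, Kif20a, Kif21b, Kif28, Kif5a, Kif5b, Kifc2 and Kifc3. Shares below count windows and not genes. Kif1a, Kif1b, Kif2a and Kif9 had more than 1 window. Those of Kif1b, of Kif2a and of Kif9 overlap, and the same CCAAT matches of Kif1b are counted in both of its windows. TTTGAA occurred in 10 of 12 windows of mitotic kinesins (83.3%), in 1 of 13 of transport kinesins (7.69%) and in 2 of 11 of the others (18.2%), against 13.4% of the 18109 windows of tested genes. CCAAT occurred in 66.7% of mitotic, 30.8% of transport and 36.4% of other windows, against 37.4% of all windows, and the E2F forms in 16.7%, 7.69% and 18.2%, against 13.6%. TTTAAA was found in 2 mitotic windows, those of Kif14 and Kif2c (10.4% of all windows). A distance of 30 bases on either side of the start was chosen after the positions had been seen; within it lay a TTTGAA in 8 of 12 mitotic windows, 0 of 13 transport windows and 1 of 11 others, against 2.16% of all windows. These are matches of letters and not measured binding sites, and the members were chosen with their functions known. The windows of Kif15 and Kif14 also held TTTGAA although their probe sets showed no difference.

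The first 4 sequences show mitotic members with TTTGAA beside the start, the fifth a mitotic member that rose and holds an E2F form only, and the last a transport member whose main probe set fell and which holds CCAAT but neither TTTGAA nor an E2F form. They are written 5' to 3' along the gene's strand, and capitals mark every match to the motifs named above, TTTGAA on the opposite strand appearing as TTCAAA and CCAAT as ATTGG. The windows are chr19:34922108-34922407 on the plus strand for Kif20b, chr19:37376132-37376431 on the plus strand for Kif11, chr7:127042371-127042670 on the minus strand for Kif22, chr9:61946750-61947049 on the minus strand for Kif23, chr2:109280488-109280787 on the plus strand for Kif18a and chr4:149307649-149307948 on the minus strand for Kif1b.
Kif20b: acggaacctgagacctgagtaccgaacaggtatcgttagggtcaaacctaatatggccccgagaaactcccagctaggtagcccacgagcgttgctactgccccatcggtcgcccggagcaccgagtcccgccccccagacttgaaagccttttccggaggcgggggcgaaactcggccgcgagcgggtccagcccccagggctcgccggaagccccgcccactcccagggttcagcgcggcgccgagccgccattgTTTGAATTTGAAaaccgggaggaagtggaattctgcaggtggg
Kif11: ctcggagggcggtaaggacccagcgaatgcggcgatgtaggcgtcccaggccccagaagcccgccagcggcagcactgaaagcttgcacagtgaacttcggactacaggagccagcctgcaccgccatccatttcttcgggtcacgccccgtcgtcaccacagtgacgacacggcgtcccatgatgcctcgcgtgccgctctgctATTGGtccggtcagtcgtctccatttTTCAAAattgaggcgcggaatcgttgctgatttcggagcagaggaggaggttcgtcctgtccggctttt
Kif22: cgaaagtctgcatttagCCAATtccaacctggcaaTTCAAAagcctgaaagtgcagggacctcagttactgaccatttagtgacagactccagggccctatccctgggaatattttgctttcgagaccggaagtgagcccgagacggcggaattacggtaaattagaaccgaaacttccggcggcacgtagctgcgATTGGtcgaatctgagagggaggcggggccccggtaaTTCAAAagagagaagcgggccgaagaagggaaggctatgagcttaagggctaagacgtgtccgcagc
Kif23: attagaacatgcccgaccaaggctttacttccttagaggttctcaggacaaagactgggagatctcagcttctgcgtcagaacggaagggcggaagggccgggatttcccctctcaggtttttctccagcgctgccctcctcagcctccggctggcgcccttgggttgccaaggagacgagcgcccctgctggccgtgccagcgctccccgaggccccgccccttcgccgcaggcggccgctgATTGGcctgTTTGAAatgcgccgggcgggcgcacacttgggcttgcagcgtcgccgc
Kif18a: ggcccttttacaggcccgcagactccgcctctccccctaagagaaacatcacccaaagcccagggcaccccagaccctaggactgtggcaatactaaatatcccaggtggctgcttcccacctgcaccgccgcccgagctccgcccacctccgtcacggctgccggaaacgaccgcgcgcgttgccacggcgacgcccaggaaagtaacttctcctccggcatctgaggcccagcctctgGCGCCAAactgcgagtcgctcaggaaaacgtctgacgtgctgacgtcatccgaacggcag
Kif1b: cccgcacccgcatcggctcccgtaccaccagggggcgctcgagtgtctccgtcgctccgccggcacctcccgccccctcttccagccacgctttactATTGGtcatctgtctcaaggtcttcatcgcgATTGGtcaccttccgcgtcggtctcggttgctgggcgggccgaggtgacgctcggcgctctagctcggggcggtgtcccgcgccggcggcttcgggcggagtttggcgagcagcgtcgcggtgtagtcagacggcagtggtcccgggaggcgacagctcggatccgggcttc
In Kif20b copies of the motif stand back to back just after the start. In Kif11 and Kif22 a reversed CCAAT lies a short way upstream of a reversed TTTGAA, and in Kif23 both lie around the start. Kif11, Kif22, Kif23 and Kif20b are the members with differences of 4.03, 3.46, 2.00 and 4.11 given above, Kif18a differed by 2.32 and Kif1b by -1.53.

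**Figure D3:**
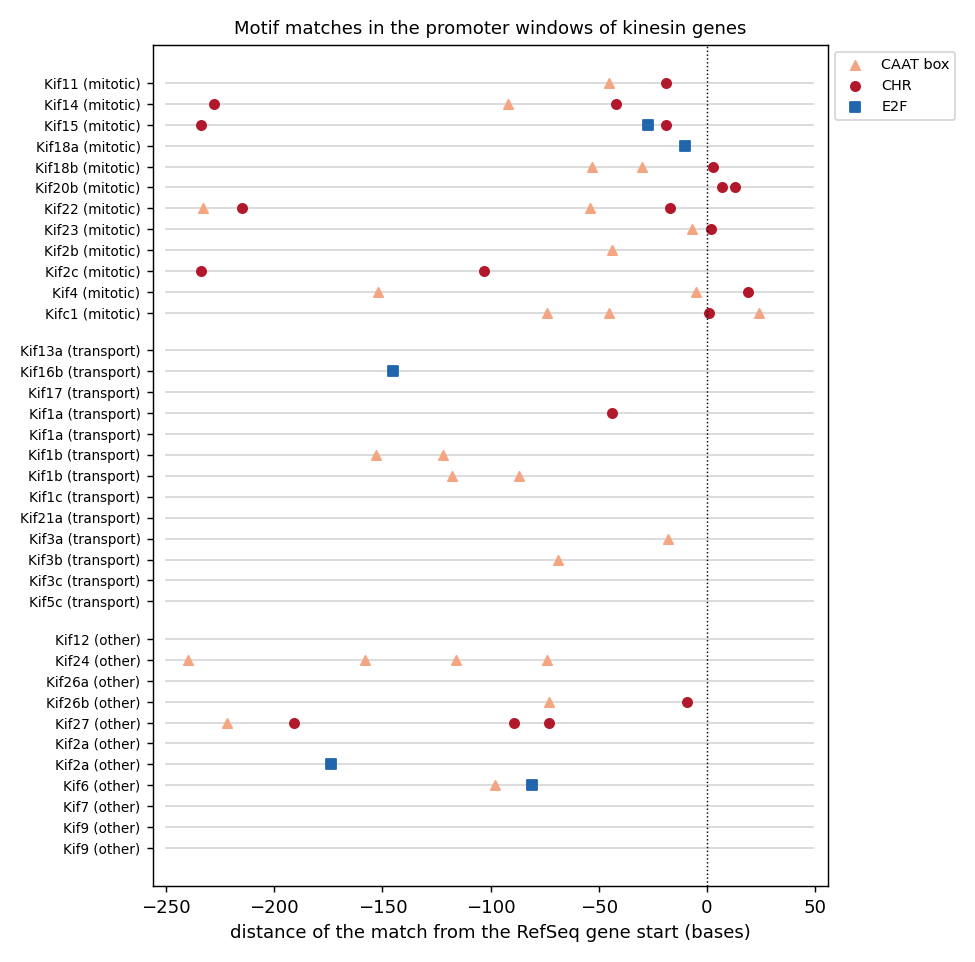
Distance in bases of each motif match from the annotated gene start (dotted line at 0) in the 36 promoter windows of kinesin genes, grouped by function; circles are either CHR form, triangles the CAAT box and squares the E2F forms. In 8 mitotic windows a circle lies within 30 bases of the start, and in the transport windows there is 1 circle, in Kif1a.

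Transport kinesins moved by less and in both directions. Kif5b, the heavy chain of conventional kinesin found in most tissues, read 10.76, 10.33, 10.50, 10.27 and 10.31 in tumours, against 9.33, 9.51, 9.22 and 9.50 in livers, a difference of 1.04 (SE 0.12, limma adjusted p = 0.000252), or 2.06-fold. The groups did not overlap, and all 6 of its probe sets passed as higher, with differences of 0.41 to 1.04. Kifc3, a motor linked to apical transport and cell junctions, read 9.21, 8.58, 8.75, 8.69 and 9.11 in tumours, against 7.96, 8.08, 7.94 and 8.58 in livers, where tumour 2 and liver 4 coincided. It differed by 0.73 (SE 0.18, adjusted p = 0.0128) and lost its call with arrays centred on housekeeping genes (0.47).

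Kif1b was counted as lower from its brightest probe set, but its probe sets disagreed. That probe set read 9.47, 10.54, 9.14, 9.43 and 9.84 in tumours, against 11.29, 11.08, 11.12 and 11.39 in livers, a difference of -1.53 (SE 0.25, limma adjusted p = 0.0019); tumour 2 came closest to the livers. The gene makes a short form that carries mitochondria and a long form known in neurons for carrying synaptic vesicle precursors. Of its 7 probe sets, 4 passed as lower, at -1.53, -1.34, -0.61 and -1.53, and 3 passed as higher, at 0.52, 0.68 and 0.65 (30.6% of all probe sets passed when each was tested by itself). In each of the 4 every tumour lay below every liver, and for the probe set at 0.65 tumours read 6.88 to 7.30 and livers 5.93 to 6.62. Kif1b was the only one of the 40 genes with probe sets past the threshold in both directions. The transcript form that each probe set reads is not known here, so no direction is given for the gene as a whole, and the count of 5 lower transport kinesins holds for the brightest probe sets only.

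**Figure D4:**
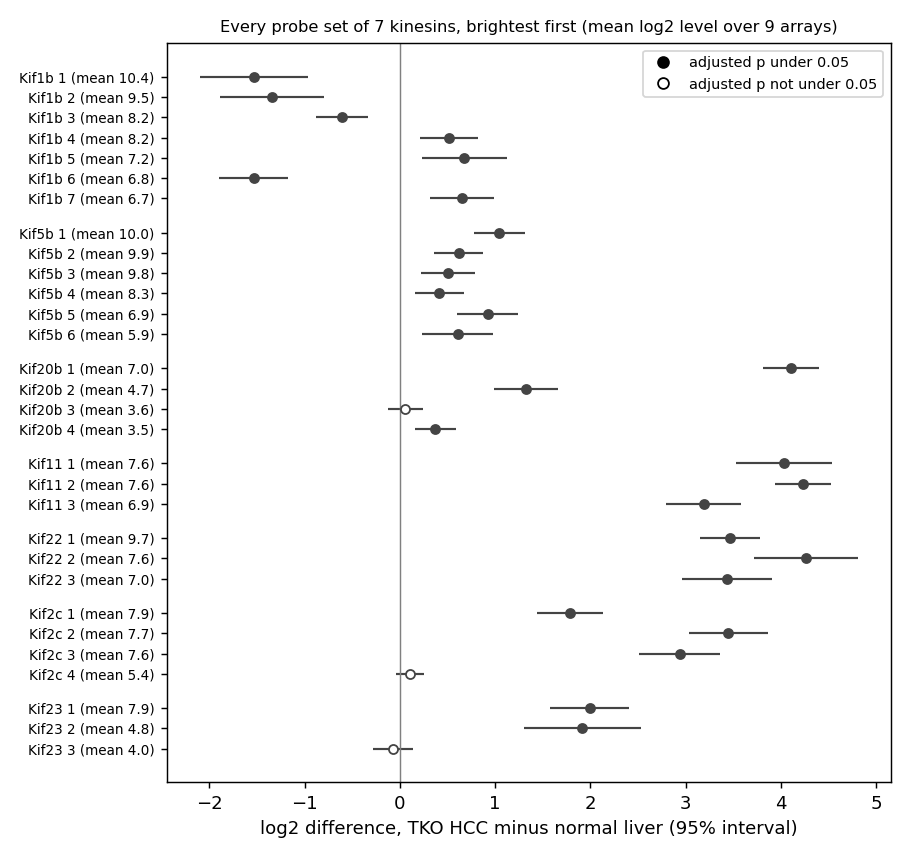
Log2 difference (TKO HCC minus normal liver, horizontal axis) with its 95% interval for every probe set of 7 kinesins, brightest first, with the mean log2 level over 9 arrays beside each name; filled points passed an adjusted p of 0.05. The probe sets of Kif1b lie on both sides of 0, between -1.53 and 0.68, those of Kif5b lie between 0.41 and 1.04, and the points near 0 of Kif20b, Kif2c and Kif23 are the dimmest or next to dimmest of their gene.

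The other transport kinesins that fell did so by less than 2-fold. Kif13a, which carries mannose 6-phosphate receptors to the cell surface, read 6.97, 7.65, 7.52, 7.11 and 7.24 in tumours, against 7.73, 8.16, 7.83 and 8.10 in livers, a difference of -0.66 (SE 0.16, limma adjusted p = 0.0122). The kinesin-2 gene Kif3c read 8.15, 8.13, 8.04, 8.33 and 8.09 in tumours, against 8.75, 8.52, 8.57 and 8.41 in livers, a difference of -0.41 (SE 0.09, adjusted p = 0.0084). In both genes the groups stood apart by less than 0.1 log2 units. A second probe set of Kif3c gave -0.18 without passing, and of the 4 further probe sets of Kif13a 1 passed at -0.62 and 3 at -0.325 to 0.03 did not. Kifc2, a minus-end motor known from neurons, read 7.16, 7.19, 6.82, 7.48 and 7.15 in tumours, against 7.55, 7.48, 7.75 and 7.64 in livers (-0.44, SE 0.13). Its call was lost without liver 3 (-0.40), without liver 4 (-0.43) and with the mean of its 2 probe sets (-0.29). Kif5c, a neuronal form of conventional kinesin, read 5.26, 5.39, 5.28, 5.22 and 5.11 in tumours, against 6.09, 5.50, 5.68 and 5.51 in livers (-0.44, SE 0.13). Its call was lost without tumour 1 (-0.44), tumour 5 (-0.40) or liver 3 (-0.44), while averaging its 4 probe sets gave 0.09, so its direction depended on the probe set. Without liver 3 the count of lower transport kinesins was 3 instead of 5.

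Markers of other cells are given beside these values, where 17.4% of all genes were called lower and 16.1% higher. The 4 endothelial markers summed to 9.82 to 10.66 in tumours, against 11 to 11.29 in livers, with 2 of 4 lower, the 4 macrophage markers to 10.39 to 12.43 in tumours and 12.30 to 13.20 in livers, with 2 of 4 lower, and the 4 stellate cell markers to 9.30 to 10.76 in tumours and 11.39 to 11.71 in livers, with 2 of 4 lower. T and B cell markers were summed at 7.78 to 8.36 in tumours and 8.05 to 8.67 in livers with 1 of 4 lower, and bile duct markers at 8.57 to 9.09 in tumours and 8.42 to 8.73 in livers with 1 of 4 higher and 1 lower. Of 7 neuronal and neuroendocrine markers 3 were lower and 0 higher, with summed levels of 8.29 to 9.82 in tumours and 9.16 to 9.34 in livers, and Snap25 and Tubb3 lay at or under the highest TrpnX value on all arrays. Differences were positive, without passing, for 1 of 4 endothelial (Pecam1, 0.40), 1 of 4 macrophage (Cd68, 0.69) and 2 of 4 stellate markers (Des, 0.06, and Pdgfrb, 0.86). The sums weigh the brightest markers most. The part of these cells in the lower transport kinesins was not tested.

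Another 10 transport kinesins did not pass. Nearest to the threshold were Kif5a, another neuronal heavy chain, at -0.31 (adjusted p = 0.0612), Kif21a at 0.24 (adjusted p = 0.0822; -0.02 with arrays centred on housekeeping genes) and Kif3b, a ciliary and transport motor, at -0.18 (adjusted p = 0.149). Kif5a read 5.51 to 5.89 in tumours and 5.90 to 6.31 in livers and passed without liver 4 (-0.38). The rest were Kif1a, Kif1c, Kif3a, Kif13b, Kif16b, Kif17 and Kif21b, with differences of -0.20 to 0.45. Kif17 passed as lower with the mean of its probe sets (-0.29), and 1 of its probe sets passed by itself at -0.43. A further probe set passed by itself as higher for Kif3a (0.59) and as lower for Kif3b (-0.25). Kif21b, singled out after its values were seen, read 6.89 in tumour 2 and 8.05 to 8.39 in the other 4, against 7.05 in liver 1 and 7.62 to 7.72 in the other 3, and passed as higher without tumour 2 (0.72). Kif1a also passed without liver 4 (-0.30).

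Among the other kinesins, Kif24, which caps the mother centriole and holds back cilia, read 7.60, 8.02, 6.81, 6.56 and 7.13 in tumours, against 6.29, 6.30, 6.38 and 6.05 in livers, a difference of 0.97 (SE 0.27, limma adjusted p = 0.0234). All tumours lay above all livers, but the tumours spread over 1.45 log2 units. The call was lost without tumour 1 (0.88), liver 1 (0.98), liver 2 (0.99) or liver 4 (0.90) and with arrays centred on housekeeping genes (0.71). Its other 2 probe sets gave -0.08 and 0.06, and the mean of all 3 was 0.32 without passing. Kif6 read 5.54, 5.64, 5.60, 5.53 and 5.48 in tumours, against 5.98, 5.83, 5.94 and 5.998 in livers, a difference of -0.38 (SE 0.07, adjusted p = 0.00325), while its second probe set gave -0.15 without passing. The call of Kif6 was lost when replicate number was added to the fit as a block (-0.36). The remaining 8, which include Kif7 of the Hedgehog pathway at -0.23 (adjusted p = 0.107) and Kif28 at -0.22 (adjusted p = 0.0854), differed by -0.23 to 0.22. Kif2a, a microtubule-shortening relative of Kif2c that acts in neurons and on spindles, differed by 0.22 (95% interval -0.22 to 0.66). Of its 4 further probe sets, 1 passed as higher at 0.635 and the others, at -0.18 to 0.40, did not pass.

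**Figure D5:**
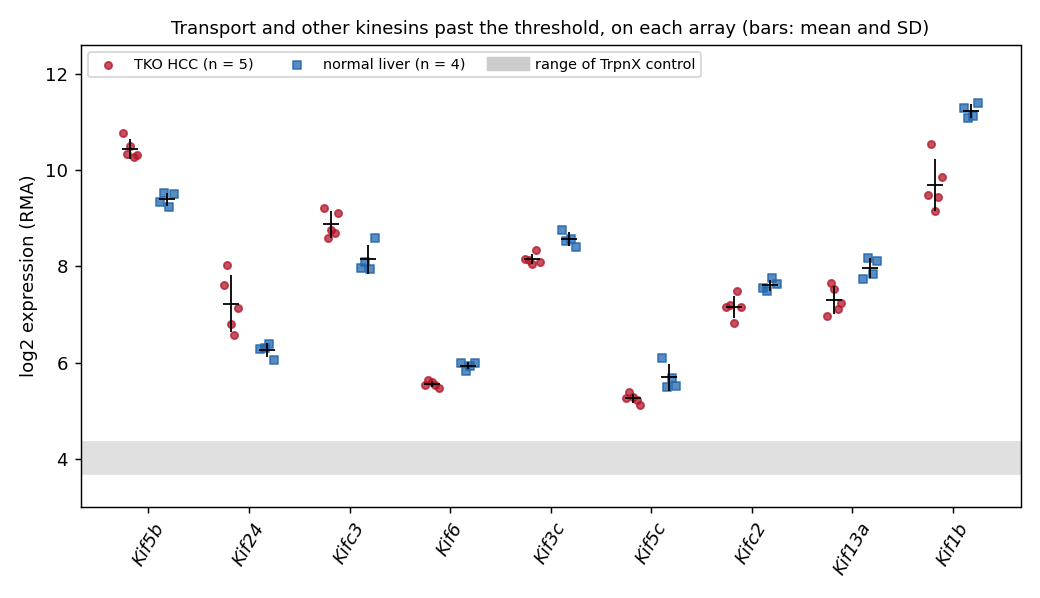
Log2 expression (vertical axis) on each array of the 9 transport and other kinesins past the threshold, TKO HCC as circles left of normal liver as squares, with mean and SD; the grey band is the TrpnX range. Kif5b and Kif24 are higher in all tumours than in all livers, Kifc3 touches at 8.58, and in the other 6 the probe set shown is lower in all tumours.

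Genes that work with the motors were read from lists named by function. Values are given for the 4 smallest adjusted p of each list, at least 1 in each direction where both occurred. The spindle list went the way of the mitotic kinesins, whereas the counts of the other lists are read beside the shares of all genes. Of 16 spindle partners of the mitotic kinesins, 14 were higher and 0 lower, with a median difference of 3.88. This list includes Cenpe, itself a kinesin, whose symbol falls outside the rule used for the family. Racgap1, which pairs with Kif23 in centralspindlin, differed by 5.19 (SE 0.14), Birc5 (survivin) and Aurkb of the chromosomal passenger complex by 6.89 (SE 0.19) and 5.18 (SE 0.19), and Tpx2, a spindle assembly factor, by 3.73 (SE 0.14). Of 19 cargo adaptors and light chains of transport kinesins, 4 were higher and 2 lower, with a median of 0.05. Klc1, a kinesin light chain, differed by 0.58 (SE 0.12), the scaffold genes Mapk8ip3 and Mapk8ip2 by 0.77 (SE 0.18) and -0.30 (SE 0.08), and Plekhm2, which links kinesin to lysosomes, by 0.56 (SE 0.15). Rhot2 was also higher and Madd also lower. Of 19 genes of cytoplasmic dynein and dynactin, the motor of the opposite direction, 4 were higher and 3 lower, with a median of 0.20. The dynein regulator Nde1 differed by 1.63 (SE 0.12) and the light chain Dynll1 by 1.73 (SE 0.28), and the lower members Dynlrb1 and Dctn3 by -0.41 (SE 0.09) and -0.52 (SE 0.12). Dctn1 and Dctn2 were also higher and Dynlt3 also lower. Of 19 intraflagellar transport genes, whose trains the Kif3 motors pull along cilia, 6 were higher and 1 lower, with a median of 0.19. Ift80, Ift122 and Ift81 differed by 1.47 (SE 0.15), 1.12 (SE 0.13) and 0.89 (SE 0.15), and Ift52, the lower member, by -0.29 (SE 0.08), and Ift27, Ift88 and Ift140 were also higher. Outside the spindle list the calls in either direction, at 6, 7 and 7 of 19, were near the 33.5% of all genes. By direction the intraflagellar transport list was uneven, with 6 of 19 higher and 1 lower, against 16.1% and 17.4% of all genes.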

How the data were processed

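Gene expression was measured in 5 tumours and 4 livers. Per the labels' protocols, RNA came from a Trizol extraction and went through a 2-round RiboAmp amplification. The authors deposited 1 log2 value for each probe set, and the submitters' processing notes name RMA. The sources used here give no version, settings or scan batch. RMA compresses differences of dim probe sets, and common quantile normalisation can hide a general shift.

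The table held 45101 probe sets; 34945 named 1 gene, 932 several and 9160 none, with 64 controls left out. Platform symbols were used, of which 34741 were found in the RefSeq table of GRCm38.p6 with 0 changed. Groups were taken from the titles. All 18193 genes were fitted with limma 3.58.1 in R 4.3.3 (lmFit, eBayes, no covariates), every sentence with an adjusted p or SE of a gene refers to this fit, and dim probe sets were kept. The fit was tested on simulated data. Summed marker levels are log2 of the sum of unlogged values. Even the most alike arrays stood 0.295 log2 units apart (root mean square over probe sets), so none was taken for a duplicate. Tables and plots used Python 3.11.15, numpy 2.4.6, pandas 2.3.3 and matplotlib 3.10.9. Values are given for all mitotic kinesins, all others past the threshold, the 5 others nearest to it and up to 4 genes of each partner list. The members and lists were chosen with earlier results of these data known. Kif19a was not analysed here. Alternatives were 2 scalings, a filter on dim genes, the mean of and each of a gene's probe sets, another variance prior, a replicate block and leaving out each array.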

Additional observations from a re-analysis of the deposited data

Results flagged for a closer look

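Of 80 groups (40 genes in 2 groups), 8 held an array far from the others by Dixon's test, which chance does in about 1 group in 20. In Kif22, tumour 4 read 10.76 and the other tumours 11.30 to 11.42. In Kif16b, tumour 4 read 6.33 and the others 7.002 to 7.202. In Kif21b, tumour 2 read 6.89 and the others 8.05 to 8.39, and liver 1 read 7.05 and the other livers 7.62 to 7.72. Tumour 3 stood apart at 5.51 in Kif5a, where the others read 5.85 to 5.89, at 5.62 in Kif1a (5.68 to 5.69) and at 4.27 in Kif14 (4.08 to 4.13), and tumour 2 at 4.88 in Kif27 (5.04 to 5.11). In Kif14, Kif1a and Kif27 the gap arose mainly because the other tumours lay within 0.1 log2 units of each other.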

How the results depend on the processing

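In all 16 alternative settings 10 mitotic kinesins were higher, where in the setting that tests every probe set a gene counts if at least 1 of its probe sets passed. Single probe sets of 4 of these genes did not pass, at 0.03 for Kif18a, 0.06 for Kif20b, -0.07 for Kif23 and 0.11 for Kif2c. With the mean of a gene's probe sets, dim ones included, the differences of Kif18a, Kif20b and Kif23 fell to 1.17, 1.46 and 1.28 and still passed. Genes past the threshold numbered 6091, and 9378 with arrays centred on the 75th percentile, where 12 kinesins were lower, 2 of them mitotic; calls as higher made up 48.0% as deposited, 25.7% there and 28.1% with housekeeping centring. The median of transport kinesins was -0.44 with housekeeping centring, -0.33 with the 75th percentile, -0.036 with mean probe sets and -0.088 with every probe set, where 4 transport kinesins had a probe set that was higher. Housekeeping centring left 1 transport kinesin higher. Leaving out single arrays gave 3 to 6 lower transport kinesins. The deviations of same-numbered tumours and livers from their group means gave r of -0.13, -0.07, 0.18 and -0.12 for numbers 1 to 4. Differently numbered samples gave -0.145 to 0.181, so no pairing was seen, though so few values cannot exclude pairing. With a replicate block 3552 genes, 1 higher and 2 lower transport kinesins and 2 lower kinesins in all passed, with 10 mitotic kinesins higher. The calls lost there were those of Kif3c, Kif5c, Kif6, Kif24, Kifc2 and Kifc3. Of the values above, directions turned for Kif14 (-0.20 with housekeeping centring, -0.092 with the 75th percentile, and -0.025 to 0.099 when single arrays were left out, the lowest without liver 4), Kif21a (-0.024 with housekeeping centring), Kif24 (-0.078 with its second probe set) and Kif5c (0.087 with mean probe sets, 0.37 with its second). In all, 12 kinesins had a further probe set of opposite sign, 5 of them called (Kif1b, Kif5c, Kif13a, Kif23 and Kif24) and 7 not called (Kif1c, Kif2a, Kif3b, Kif12, Kif13b, Kif16b and Kif21a), and only in Kif1b did such a probe set pass. Centring shifts every gene's difference by 1 amount, so the signs turned under centring follow from the scaling. For the remaining changes the cause was not tested. Signals near the TrpnX control, as in Kif14 and Kif2b, limit what could be measured.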
